A study of Mus musculus with 2 samples.

Results

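The genes described here are 9 transcription factors that set pancreatic and foregut identity: Pdx1, Sox9, Sox17, Foxa1, Foxa2, Hnf4a, Gata6, Gata4 and Klf5. They were taken by symbol, 9 of the 33696 features in the matrix, and all 9 had UMIs (unique molecular identifiers, which count captured transcripts once) in both classes of cells compared. The material was a single-cell RNA library of KPCY 6419c5, a mouse pancreatic ductal adenocarcinoma cell line carrying the BASELINE lineage recorder and a Cas12a-based adenine base editor. Clones 76 and 84, each grown from 1 sorted cell, were pooled 1:1 after 19 days of editing and captured as 1 library with 3′ version 4 chemistry. KPCY names a tumour background with mutant Trp53, Cre driven by the Pdx1 promoter and a yellow fluorescent reporter, so the pooled cells share these alleles as well as the recorder and the editor. Another library, of 5 pooled clones, was not analysed here.

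Foxa1 and Foxa2 are forkhead proteins that open chromatin in the early gut endoderm, and Sox17, Gata4, Gata6 and Hnf4a act with them to specify endodermal organs. Pdx1 marks the pancreatic and duodenal domain of the foregut and is needed for the pancreas to form, while Sox9 maintains pancreatic progenitors and later marks ducts. Klf5 is a zinc-finger factor of gut and ductal epithelium, and in pancreatic cancer Gata6 and Hnf4a are commonly read as factors of the classical, more epithelial tumour subtype.

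Cells were not assigned to clones. They were placed in classes by marker genes that are not among the 9 factors. An A cell had at least 2 UMIs summed over Pde10a, Plcb1, Galnt18, Arhgap15 and Ceacam1, and at least 3 times the UMIs of the B markers. A B cell met the same rule for S100a7a, Rgs20, Hs6st2, Ccbe1, Ctse and Mal. Of 22178 barcodes, with 500 to 23576 UMIs each and 116505698 in all, 21361 passed the cell filter, and 7816 were A cells, 8936 were B cells and 4609 were neither. Median depth was 4699.5 UMIs in A cells and 5440.5 in B cells, and the median mitochondrial share was 3.19% and 1.89%. The classes are ranges of a marker count: 4582 A cells and 6363 B cells had 4 or more marker UMIs. Of the cells of neither class, 3824 had at most 1 marker UMI and 785 had markers of both. Ductal markers (16 genes, 15 at 1 CPM or more) summed to 5283 CPM in A and 11832 CPM in B cells, with Krt18, a keratin of simple epithelium, highest in both (1083 and 3019 CPM). Of the 15, 8 were at least 2-fold higher in B cells and 3 in A cells. The 8 included Krt18, Krt19 (618 and 1584 CPM in A and B cells), Krt7 (53.4 and 1358 CPM) and Cftr (1.59 and 44.1 CPM). The 3 were Epcam (31.8 and 3.16 CPM), Aqp1 (6.53 and 1.25 CPM) and Slc4a4 (50.2 and 21.0 CPM). Spp1, the second highest in A cells, had 1052 and 751 CPM. Endocrine markers had 18 and 25 UMIs in all, with Ins1, Gcg and Sst at 0 in both classes, and acinar markers summed to 13.9 and 4.96 CPM. Immune markers summed to 3.53 and 1.14 CPM, and fibroblast markers to 146 and 6.82 CPM, of which Acta2 had 144 and 5.89 CPM. Of the other 8 fibroblast markers, Col3a1 had 51 UMIs in A and 2 in B cells, Pdgfra 25 and 32, Col1a1 9 and 11 and Pdgfrb 0 and 4, and Col1a2, Dcn, Lum and Thy1 were at 0 in both. Levels are given as CPM, each class's summed counts divided by its total and scaled by 1e6, and a 3′ tag is counted once per transcript, so levels were not divided by transcript length. Because the design gives 1 library, no test between classes was possible. Intervals are exact 95% intervals (Poisson for levels, conditional for ratios, Clopper-Pearson for shares) that hold counting error and leave out any spread between cultures.

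Promoter sequences are shown for the members that differed 2-fold or more between classes and had a RefSeq entry, which were Pdx1, Hnf4a and Foxa1. Each line gives the 250 bases before the start site, 5′ to 3′ on the gene's strand, in build GRCm38.p6, and capitals mark the motifs found. The search covered the 50 bases after the start site too, on both strands, and no matches overlapped.
Pdx1, chr5:147269847-147270096, plus strand: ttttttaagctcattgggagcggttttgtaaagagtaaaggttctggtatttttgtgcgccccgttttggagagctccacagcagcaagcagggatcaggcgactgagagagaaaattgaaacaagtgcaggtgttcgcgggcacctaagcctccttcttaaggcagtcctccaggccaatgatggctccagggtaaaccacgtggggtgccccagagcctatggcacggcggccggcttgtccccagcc
Hnf4a upstream promoter, chr2:163506607-163506856, plus strand: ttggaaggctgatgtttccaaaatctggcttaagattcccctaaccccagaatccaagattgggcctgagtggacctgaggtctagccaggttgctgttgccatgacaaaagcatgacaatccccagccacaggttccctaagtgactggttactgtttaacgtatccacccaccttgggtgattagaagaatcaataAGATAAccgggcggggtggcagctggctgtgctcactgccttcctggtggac
Hnf4a downstream promoter, chr2:163546905-163547154, plus strand: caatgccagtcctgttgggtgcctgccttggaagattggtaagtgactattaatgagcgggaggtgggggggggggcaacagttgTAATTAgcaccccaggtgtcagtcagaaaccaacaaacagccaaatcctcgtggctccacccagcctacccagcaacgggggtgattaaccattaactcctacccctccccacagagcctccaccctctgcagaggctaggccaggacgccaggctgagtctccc
Foxa1, chr12:57546112-57546361, minus strand: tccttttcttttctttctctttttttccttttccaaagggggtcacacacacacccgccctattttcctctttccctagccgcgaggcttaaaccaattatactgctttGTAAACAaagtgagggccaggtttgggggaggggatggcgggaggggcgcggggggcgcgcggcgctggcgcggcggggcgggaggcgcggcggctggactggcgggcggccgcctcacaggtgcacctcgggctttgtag

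Of 32851 RefSeq promoter windows of the same length, 3.65% held the forkhead core TGTTTAC and 11.2% held the GATA core AGATAA. The homeobox core TAATTA was in 5.29%. The HNF4 core CAAAGTCC was in 1.42%, the KLF box CCACACCC in 3.56% and the SOX core AACAAT in 10.7%. The upstream Hnf4a promoter held AGATAA at -52, counted from the start site to the first base of the match. The downstream one held TAATTA at -165. Foxa1 held the forkhead core on the opposite strand, GTAAACA, at -141, and Pdx1 held none of the 6 motifs. Of the 3 RefSeq starts of Foxa2, 1 held AGATAA at -183. A match describes letters only. Sox9, Sox17, Gata4 and Klf5 had no entry, and Gata6 was not searched.

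Of the 9 factors, 3 were at least 2-fold higher in A cells (Sox17, Pdx1 and Hnf4a), against 14.8% of the 12666 features with at least 1 CPM in either class. In B cells, 2 were at least 2-fold higher (Sox9 and Foxa1), against 10.2% of features. The other 4, Klf5, Gata6, Foxa2 and Gata4, were under 2-fold. The median log2 ratio of A over B was -0.16 over the 9 factors and 0.20 over all 12666 features. Rescaling the classes to equal medians over 3908 features with at least 50 CPM moved each log2 ratio down by 0.11.

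**Figure D1:**
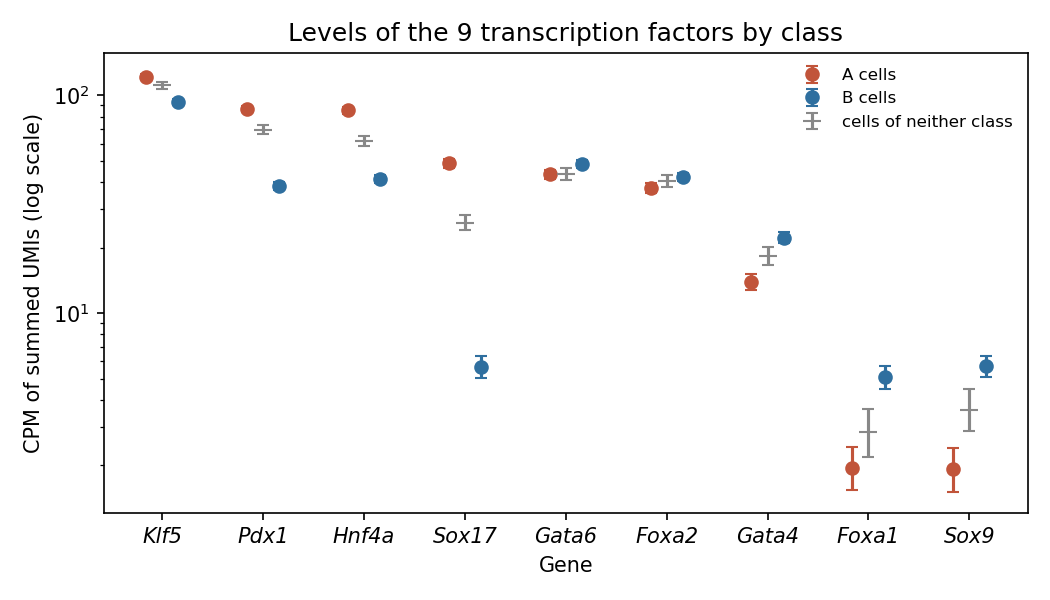
Levels of the 9 factors in A cells, B cells and cells of neither class, as CPM of summed UMIs on a log axis; points are class values and bars are 95% counting intervals. Sox17 spans 48.7 to 5.67 CPM between A and B cells, whereas Gata6 and Foxa2 lie close together in all 3 sets of cells.

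Pdx1 (ENSMUSG00000029644), the homeobox factor of the pancreatic field, had 86.8 CPM in A cells (interval 83.9 to 89.7, 3494 UMIs) and 38.4 CPM in B cells (36.8 to 40.2, 2029 UMIs). Its level was 2.26-fold higher in A cells (2.14 to 2.38). Cells of neither class lay between, at 69.7 CPM. Its log2 ratio stayed between 1.06 and 1.23 over the 8 alternative settings.

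Sox9 (ENSMUSG00000000567), the ductal and progenitor factor, was among the lowest of the 9. It had 1.91 CPM in A cells (1.51 to 2.39, 77 UMIs) and 5.68 CPM in B cells (5.06 to 6.37, 300 UMIs), a level 2.97-fold higher in B cells (2.31 to 3.87). Thus Pdx1 and Sox9, which are expressed together in pancreatic progenitors, differed between the classes in opposite directions.

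Sox17 (ENSMUSG00000025902), a factor of definitive endoderm and the biliary primordium, had the widest difference of the 9. It reached 48.7 CPM in A cells (46.6 to 50.9, 1963 UMIs) and 5.67 CPM in B cells (5.04 to 6.35, 299 UMIs), 8.60-fold higher in A cells (7.61 to 9.75). Its log2 ratio of 3.10 lay at the 96.9th percentile of all features. Split by the A-marker UMIs that the class rule also used, the 8553 B cells with none had 5.29 CPM of Sox17 and the 383 with 1 or more had 11.9 CPM. Depth differed too, with medians of 5392 and 7659 UMIs. In A cells split by B-marker UMIs, the 7377 with none had 49.0 CPM and the 439 with 1 or more had 45.9 CPM, at medians of 4648 and 5973 UMIs. Free RNA or mixed barcodes can carry transcripts between classes, and no cell type lacking these genes was in the library to measure that. The part of either in these levels was not tested.

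Sox17 is also a factor of arterial endothelium, and 9 endothelial markers were counted beside it. They summed to 42.1 CPM in A and 8.96 CPM in B cells, mostly from Egfl7 (32.6 and 7.75 CPM), with Vwf at 5.12 and 0.246 CPM and Tek at 3.43 and 0.152 CPM. These 3 were the markers that reached 1 CPM, and all were at least 2-fold higher in A cells. Pecam1 had 26 UMIs in A and 10 in B cells, whereas Cdh5 had 12 and 32 (0.298 and 0.606 CPM) and so lay in the opposite direction. Tie1 had 0 and 1 UMI, and Kdr, Emcn and Cldn5 had 0 in both classes. The part of these genes in the Sox17 difference was not tested.

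Foxa1 (ENSMUSG00000035451) and Foxa2 (ENSMUSG00000037025), the forkhead pioneers, had B over A ratios whose intervals did not overlap. Foxa1 had 1.94 CPM in A cells (1.53 to 2.42, 78 UMIs) and 5.08 CPM in B cells (4.49 to 5.72, 268 UMIs), 2.62-fold higher in B cells (2.03 to 3.42). Foxa2 had 37.6 CPM in A cells (35.7 to 39.5) and 42.1 CPM in B cells (40.4 to 43.9), 1.12-fold higher in B cells (1.05 to 1.20). Within the Foxa family, Foxa2 made up 93.3% of UMIs in A cells (92.0 to 94.5) and 84.0% in B cells (82.5 to 85.3), and both minor members held larger shares in B cells. Foxa1 held 4.81% and 10.1%, and Foxa3 held 1.85% and 5.93%. The family summed to 40.3 CPM in A and 50.2 CPM in B cells. The non-coding transcript 9030622O22Rik, annotated just beyond the 3′ end of Foxa2 on the same strand, had 114 CPM in A and 44.7 CPM in B cells, so it differed 2.55-fold in the direction opposite to Foxa2. Whether reads of that transcript and of Foxa2 were fully separated in counting is not given in the sources used here.

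Hnf4a (ENSMUSG00000017950), a nuclear receptor of liver, gut and pancreas, had 85.4 CPM in A cells (82.6 to 88.3, 3440 UMIs) and 41.2 CPM in B cells (39.5 to 43.0, 2175 UMIs). That was 2.07-fold higher in A cells (1.96 to 2.19), close to the 2-fold line: its log2 ratio of 1.05 went from 0.93 to 1.22 over the 8 alternatives and fell below 1 in 4 of them. Its paralog Hnf4g, a receptor prominent in intestine, differed more, with 164 CPM in A and 35.6 CPM in B cells. Hnf4a therefore made up 34.3% of Hnf4 UMIs in A cells (33.4 to 35.2) and 53.6% in B cells (52.1 to 55.2), although its own level was higher in A cells. The antisense transcript Hnf4aos had 3.35 and 2.07 CPM, and strand use in counting is not given in the sources used here.

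Gata6 (ENSMUSG00000005836) and Gata4 (ENSMUSG00000021944) are zinc-finger factors that act together in pancreas formation. Gata6 had 43.4 CPM in A cells (41.4 to 45.5) and 48.5 CPM in B cells (46.6 to 50.4), 1.12-fold higher in B cells (1.05 to 1.19). Gata4 had 13.9 CPM in A cells (12.8 to 15.1) and 22.2 CPM in B cells (20.9 to 23.5), 1.59-fold higher in B cells (1.44 to 1.76). The third endodermal member, Gata5, accounted for most of the family's difference, with 0.646 CPM in A cells and 21.8 CPM in B cells. In A cells Gata5 held 1.11% of Gata4, Gata5 and Gata6 UMIs and in B cells 23.6%, while the Gata4 share was 24.0% in both and the Gata6 share was 74.9% and 52.4%. The 3 genes summed to 58.0 CPM in A and 92.5 CPM in B cells.

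Klf5 (ENSMUSG00000005148) was the most abundant of the 9 in both classes. It had 122 CPM in A cells (119 to 126, 4922 UMIs) and 93.4 CPM in B cells (90.9 to 96.1, 4931 UMIs), 1.31-fold higher in A cells (1.26 to 1.36). Its relative Klf4 ran the other way, at 20.3 and 81.0 CPM.

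In order of level in A cells, Klf5 was followed by Pdx1 and Hnf4a, whose intervals overlapped, and then by Sox17, Gata6, Foxa2 and Gata4, each apart from its neighbours. Foxa1 and Sox9 came last with overlapping intervals. The B cell order was Klf5, Gata6, Foxa2, Hnf4a, Pdx1 and Gata4, and the intervals of Hnf4a overlapped those of both its neighbours. Sox9, Sox17 and Foxa1 were lowest in B cells, at 5.08 to 5.68 CPM with overlapping intervals. The most visible change of rank was that of Sox17, from the fourth position in A cells to the lowest 3 in B cells, as the plot of levels by class shows.

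**Figure D2:**
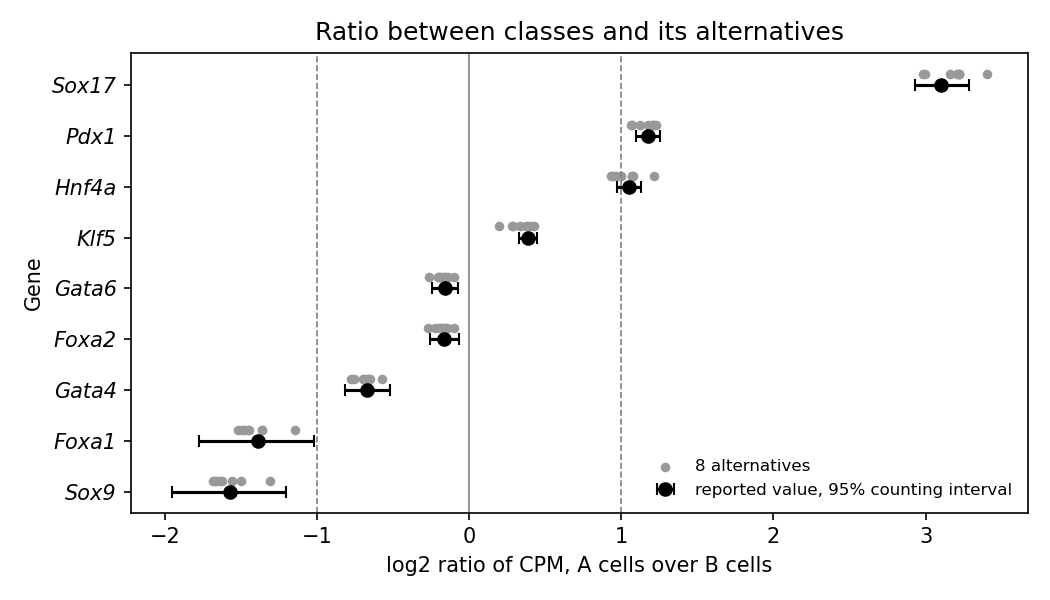
Log2 ratio of CPM in A over B cells for each factor; black points with bars are the reported values with 95% counting intervals, grey points are 8 alternative settings, and dashed lines mark 2-fold. Sox17 stays between 2.98 and 3.40, and only Hnf4a has grey points on both sides of a dashed line.

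The wider list of endoderm and pancreas factors held 42 genes. Of these, 20 reached 1 CPM in either class, and 5 were at least 2-fold higher in A cells, 6 in B cells and 9 under 2-fold, with a median log2 ratio of 0.15. The A-higher factors included Hnf4g, the intestinal factor Cdx2 (110 and 39.1 CPM in A and B cells), the epithelial ETS factor Ehf (46.9 and 1.35 CPM) and Hhex (4.05 and 1.44 CPM). The B-higher factors were Klf6 (61.9 and 143 CPM), Klf4, Gata5, Foxa3, Grhl1 (1.56 and 5.44 CPM) and Tfcp2l1 (0.869 and 4.79 CPM). Onecut2, a cut-homeodomain factor, had 302 and 203 CPM. In all, 13 of the 42 had 0 UMIs in both classes, which allows up to 3 UMIs per class. These included the acinar factor Ptf1a and the endocrine factors Neurog3, Neurod1, Nkx6-1, Nkx2-2, Pax4, Isl1 and Rfx6, as well as Sox2 of the anterior foregut.

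**Figure D3:**
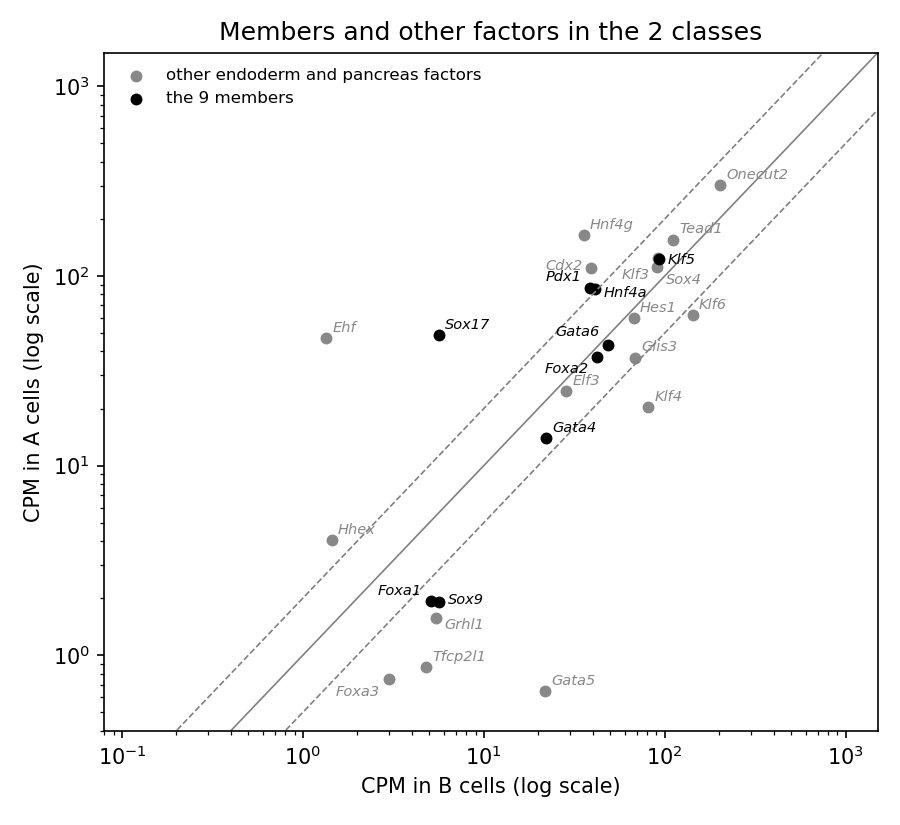
CPM in A cells against CPM in B cells on log axes for the 9 factors (black) and the other endoderm and pancreas factors with at least 1 CPM that are reported here (grey); the solid line is equality and dashed lines are 2-fold. Sox17 and Ehf lie far above the lines, and Gata5 far below.

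Genes of the tumour subtypes that these factors are read against were also counted. The 19 classical genes summed to 1144 CPM in A and 1739 CPM in B cells, led by Lgals4, Tspan8 and Cdh17. Of the 8 that reached 1 CPM, 4 were at least 2-fold higher in B cells and 1 in A cells. That 1 was Ceacam1 (80.4 and 0.872 CPM, included in the sums), a class marker whose direction the rule fixed. The 20 basal-like genes summed to 137 and 566 CPM, with Areg highest in both (51.9 and 424 CPM). Of the 9 that reached 1 CPM, 5 were at least 2-fold higher in B cells, among them Krt14 (1.84 and 69.6 CPM), and 2 in A cells. Dhrs9 was the second highest in A cells, at 43.0 CPM and 3.30-fold above its B level, and Slc2a1 had 33.6 and 40.3 CPM. The 24 foregut, stomach and intestine genes summed to 602 and 972 CPM, with 4 of 9 higher in each class. Gata6 and Hnf4a differed 1.12-fold toward B and 2.07-fold toward A cells beside subtype lists whose sums were both higher in B cells.

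Within each class, cells were compared by states read from genes outside the 9. In A cells, 1142 had a state marked by S100g, Epcam and Tm4sf20 and 2478 had one marked by Tnc, Acta2 and Ptchd4. Hnf4a had 117 CPM in the S100g/Epcam state (108 to 126) and 75.3 CPM in the Tnc/Acta2 state (70.8 to 80.0), a ratio of 1.55 (1.41 to 1.71). Klf5 had 153 and 103 CPM, a ratio of 1.48 (1.36 to 1.61). The ratio was 1.42 for Gata4 (1.10 to 1.82) and 1.24 for Gata6 (1.07 to 1.44). The intervals of Pdx1, Sox17, Foxa2, Foxa1 and Sox9 included 1. At 1.5-fold, 1 of the 9 was higher in the S100g/Epcam state, against 14.2% of features, and 0 in the Tnc/Acta2 state, against 6.91%.

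Hnf4a and Klf5 also differed in level by depth and mitochondrial share in A cells. Median depth was 4507 UMIs in the S100g/Epcam state and 5155.5 in the Tnc/Acta2 state, with mitochondrial shares of 3.55% and 3.10%. Hnf4a had 99.4 CPM in the tercile of A cells with the highest mitochondrial share and 81.3 CPM in the lowest, and 78.1 CPM in the deepest tercile and 108 CPM in the shallowest. Klf5 had 138 and 111 CPM by mitochondrial share, and 110 and 145 CPM by depth. Gata4 had 16.9 and 12.2 CPM by mitochondrial share. The part of depth and mitochondrial share in the state difference was not tested. Sox17, Foxa2 and Gata6 had ratios of 0.991 to 1.10 between these terciles of A cells, with intervals that included 1. Pdx1 in A cells had 80.3 CPM in the deepest tercile and 88.1 CPM in the shallowest. In B cells the deepest tercile had 1.54 times the Sox17 level of the shallowest (1.13 to 2.14), 1.16 times that of Foxa2 (1.04 to 1.30) and 1.13 times that of Gata6 (1.02 to 1.25). The ratio was below 1 for Hnf4a (0.831), Gata4 (0.818) and Klf5 (0.907) in B cells, with intervals that left out 1. Between the B cell terciles of highest and lowest mitochondrial share it was 1.44 for Sox17 (1.08 to 1.94) and 1.16 for Pdx1 (1.04 to 1.30). Foxa2 ran the other way, 1.11 times higher in the lowest tercile (1.001 to 1.23), and the other 6 intervals included 1.

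**Figure D4:**
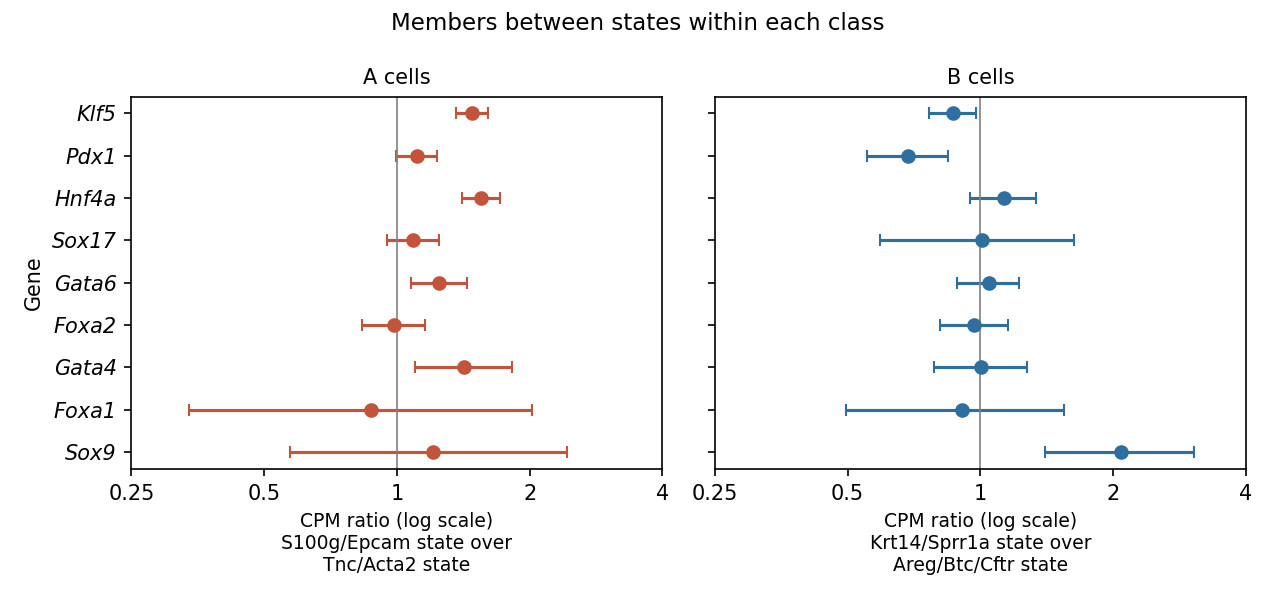
Ratio of CPM between the 2 states of each class for the 9 factors, on a log axis with 95% counting intervals; the grey line marks a ratio of 1. In A cells Hnf4a and Klf5 lie at 1.55 and 1.48, and in B cells Sox9 lies at 2.09 and Pdx1 at 0.686.

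In B cells, 541 had a state marked by the keratinised-epithelium genes Krt14 and Sprr1a, and 4714 one marked by Areg, Btc and Cftr. Sox9 had 10.1 CPM in the Krt14/Sprr1a state (7.07 to 14.1, 35 UMIs) and 4.86 CPM in the other (4.08 to 5.74, 138 UMIs), a ratio of 2.09 (1.40 to 3.04). Pdx1 was lower in that state, at 28.4 CPM (23.1 to 34.6) against 41.4 CPM (39.1 to 43.8), a ratio of 0.686 (0.553 to 0.844). Sox9 and Pdx1 therefore had opposite directions here too, as they did between the classes. Klf5 had 84.3 and 97.2 CPM, and the intervals of the other 6 included 1. At 1.5-fold, 1 of the 9 was higher in the Krt14/Sprr1a state, against 15.0% of features, and 0 in the Areg/Btc/Cftr state, against 5.33%. Median depth was 6097 and 5530.5 UMIs, and Sox9 in B cells had 6.67 CPM in the deepest tercile and 5.19 CPM in the shallowest, with overlapping intervals.

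In the 10.0% of cells of each class with the highest summed levels of replication (S phase) or mitosis (G2/M) genes, most ratios to the remaining cells had intervals that included 1, and the exceptions are given here. Pdx1 in A cells had 73.8 CPM in the S-phase set against 88.0 CPM in the rest, and 101 CPM in the G2/M set against 85.0 CPM. In B cells, the G2/M set had 56.9 CPM of Gata6 against 47.4 CPM and 3.48 CPM of Sox9 against 5.97 CPM. Pdx1 in B cells had 44.3 CPM in the S-phase set against 37.9 CPM, the reverse of its order in A cells, and Foxa2 had 35.5 CPM against 42.8 CPM. Klf5 in B cells had 84.1 CPM in the G2/M set against 94.6 CPM.

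Single cells were then compared after thinning each to 3000 UMIs, which left out 410 A and 109 B cells. A UMI of Klf5 was present in 30.2% of 7406 A cells and 24.2% of 8827 B cells. Pdx1 was present in 22.2% of A cells (21.3 to 23.2) and 10.7% of B cells (10.0 to 11.3), and Hnf4a in 22.3% and 11.8%. Sox17 was present in 12.5% of A cells (11.8 to 13.3) and 1.55% of B cells (1.30 to 1.83). Gata6 was present in 12.0% and 13.5%, Foxa2 in 10.6% and 11.6%, and Gata4 in 4.05% and 6.48%. Foxa1 and Sox9 were seen in 0.594% and 0.527% of A cells and 1.55% and 1.43% of B cells. Without thinning the Klf5 shares were 44.8% and 40.5%, those of Pdx1 34.6% and 19.7%, and those of Sox17 19.5% and 3.23%, so these shares follow depth and are not shares of expressing cells. Sox17 in A cells was the most uneven, with a variance over mean of 1.19 in the thinned counts and 1.86% of cells holding 2 or more UMIs. For the other 8 factors in A cells this ratio was 0.99 to 1.08, where 1 is the value for Poisson counts.

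A thinned A cell held UMIs of 1.15 of the 9 factors on average and a B cell 0.828. None of the 9 was seen in 28.7% of A cells and 41.0% of B cells. Of the 9, 3 or more were seen in 9.28% of A cells, where the product of the single shares gave 8.70%, and in 3.81% of B cells, where it gave 3.72%.

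Co-expression was assessed by counting cells with UMIs of both genes of a pair and dividing by the number that the product of the single shares gives. Of the 36 pairs, 29 in A cells and 33 in B cells had a product of at least 5 cells. In A cells, 4 pairs had an interval above 1, or 13.8% of those assessed, where 1.27% did of the pairs of features with at least 1 CPM in A cells and a product of that size; that background was not split by abundance. Pdx1 and Klf5 were seen together in 544 cells where the product gave 497 (ratio 1.10, 1.01 to 1.19). Hnf4a and Klf5 were seen together in 545 cells where it gave 499 (1.09, 1.002 to 1.19). The pair Foxa2 and Hnf4a had 207 cells against 175 (1.18, 1.03 to 1.35), and Foxa2 and Gata4 had 45 cells against 31.8 (1.42, 1.03 to 1.89). Pdx1 and Hnf4a, both higher in A cells, were seen together in 370 cells where the product gave 367 (1.01, 0.908 to 1.12). Sox17 with Pdx1 gave 1.02 (0.882 to 1.16) and Gata4 with Gata6 gave 0.996 (0.698 to 1.38). In B cells 0 of the 33 pairs lay above 1, where 1.16% of the corresponding feature pairs did, and 0 lay below in either class.

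**Figure D5:**
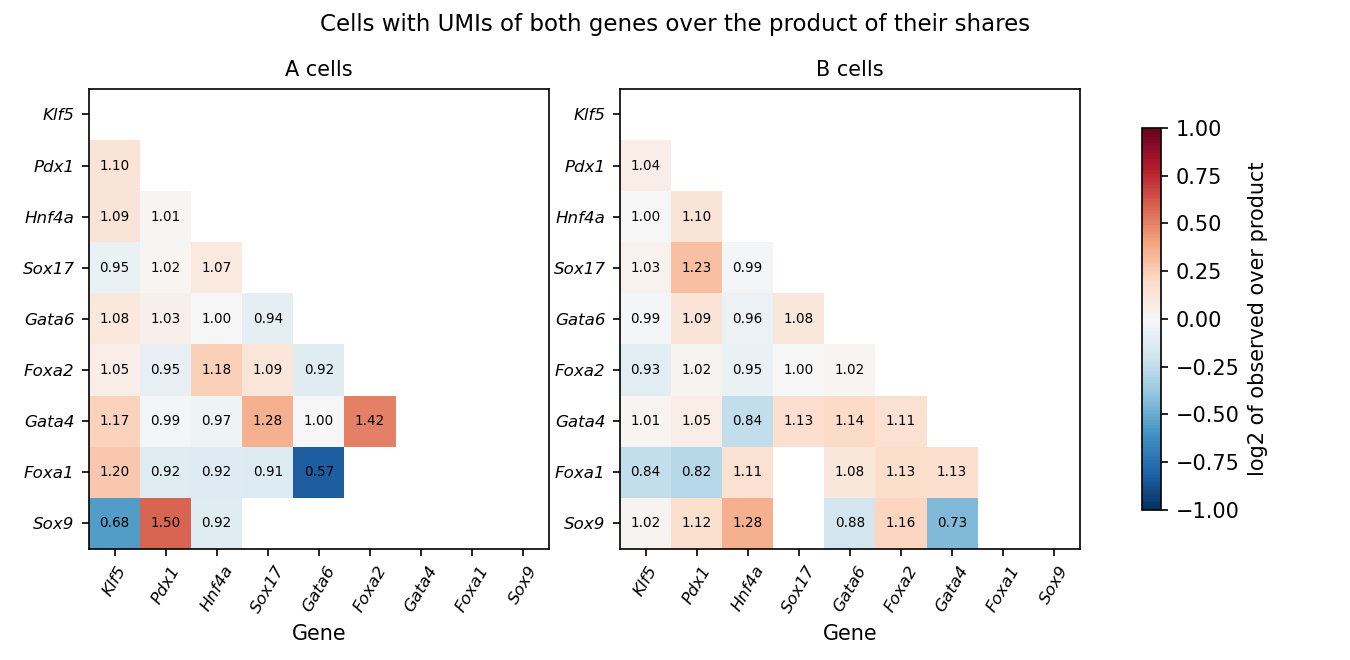
Cells with UMIs of both genes divided by the number from the product of the single shares, for pairs of the 9 factors in thinned A and B cells; numbers give the ratio, colour its log2, and blank squares had a product under 5 cells. Foxa2 with Gata4 in A cells, at 1.42, is 1 of the 4 pairs whose interval lay above 1, and the squares with larger departures rest on few cells.

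The number of pairs above 1 in A cells depended on the setting. It was 4 with 10-fold marker dominance, 3 with Scrublet doublets removed and 6 with no thinning. With thinning to 2000 or to 5000 UMIs, or with cells of 4000 to 6000 UMIs only, 0 pairs in A cells lay above 1. With no thinning and the product taken within 20 bins of depth, an alternative chosen after seeing the data, 1 did: Foxa2 and Gata4, with 127 cells against 102 (1.24, 1.04 to 1.48). Pearson correlations of thinned counts ran from -0.013 to 0.048 over the pairs in A cells and from -0.018 to 0.021 in B cells, so at this depth cells with more of 1 factor were not seen to hold more of another to any sizeable degree. Cells of 1 library share capture and depth. The thinned counts held 0 cells of either class with both Sox9 and Foxa1, where the product gave only 0.232 A cells and 1.96 B cells. Without thinning, 5 B cells held both, where the product within depth bins gave 8.98 (ratio 0.557, 0.181 to 1.30). Of A cells 0 did, where it gave 0.814.

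For the 6 factors seen in at least 10% of thinned A cells (Pdx1, Sox17, Foxa2, Hnf4a, Gata6 and Klf5), the genes whose counts followed them most closely were sought among 3513 features with at least 50 CPM. The highest correlation of any was 0.082, between Sox17 and Pde10a, and Pde10a is itself an A marker. Klf5 had its highest with Lgals4, a galectin of gut epithelium, at 0.079, and Hnf4a with Rgl1 at 0.070. S100g, the calcium-binding protein that marks 1 of the A states, was among the 3 highest for both Hnf4a and Klf5, at 0.066 each. In B cells, among 3264 features, the highest for each of the 5 factors that reached 10% of cells lay at 0.038 to 0.050. Correlations of this size in sparse counts are given as values only.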

How the data were processed

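Expression was measured in 1 pooled library of clones 76 and 84. The deposited matrix holds whole-number UMI counts per gene and barcode with no normalization, written by Cell Ranger 8.0.1 per the file headers. The genome build is GRCm39 per the submitters' processing notes. The annotation, strand and intron settings and any cell filter of the authors are not given in the sources used here. Barcodes were kept with at least 2000 UMIs, 1000 genes and at most 15% mitochondrial UMIs, which left out 817. A and B cells were called from 5 and 6 marker genes as described in the text. Cells with markers of both classes and under 3-fold dominance of either were left out by that rule, while 439 A and 383 B cells with 1 or more UMIs of the other class's markers were kept; barcodes marked by Scrublet (scanpy 1.11.5, expected rate 0.08) were removed only as an alternative. Doublets within a class are not removed by either.

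UMIs were summed per class and scaled to CPM. Named outside the 9 are the 3 genes with the most UMIs of each list, factors of the wider list with at least 1 CPM, and the 3 closest by correlation; any other was picked with its value known. Some genes of the wider list are not reported here. The members, classes and lists were chosen with earlier results of these data known. Promoters are from RefSeq (GRCm38.p6), where entries of 4 of the 9 genes were searched, and their build differs from that of the counts. Steps were tested on simulated data. No paper was used.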

Additional observations from a re-analysis of the deposited data

Results flagged for a closer look

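Cells outside the comparison also held transcripts of the 9 factors. Of the 4609 cells that passed the filter but belonged to neither class, 80.4% had a UMI of at least 1 factor (exact interval 79.2 to 81.5). Levels there lay between those of A and B cells for all 9 factors: Sox17 had 26.1 CPM, Hnf4a 61.5 CPM and Sox9 3.60 CPM. The 785 cells with markers of both classes, of which 52.0% were marked by Scrublet, had 31.7 CPM of Sox17, and the 3824 with at most 1 marker UMI had 24.1 CPM.

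Of the 817 barcodes left out by the cell filter, 43.0% had a UMI of at least 1 factor (39.5 to 46.4). There, 4 factors lay above both classes: Hnf4a at 141 CPM (118 to 168), Klf5 at 159 CPM (134 to 186), Gata6 at 67.0 CPM (51.5 to 85.7) and Gata4 at 35.1 CPM (24.2 to 49.3). Sox17 had 20.2 CPM and Pdx1 60.6 CPM, between the classes. Those barcodes had a median of 1087 UMIs and 11.1% mitochondrial UMIs, and the part of RNA quality in these levels was not tested.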

How the results depend on the processing

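No log2 ratio of the 9 factors changed sign under the 8 alternatives: of 72 values, 60 stayed within the counting interval, 12 moved outside it and 0 reversed. Hnf4a, at 1.05, fell below 1 with the strict filter (0.998), cells of 4000 to 6000 UMIs (0.966), at most 2.5% mitochondrial UMIs (0.933, with 923 A cells) and median scaling (0.945). With at least 10 CPM or at least 50 CPM required, 0 factors remained 2-fold higher in B cells, since Sox9 and Foxa1 lie below 10 CPM. At 4-fold, 1 factor was higher in A and 0 in B cells. Pairs co-detected above the product in A cells numbered 4 as reported. They numbered 0 at 2000 UMIs, 0 at 5000 UMIs and 0 for cells of 4000 to 6000 UMIs. They numbered 0 in the S100g/Epcam state alone, 2 in the Tnc/Acta2 state alone and 1 within 20 depth bins. The 2 in the Tnc/Acta2 state were Foxa2 with Hnf4a (1.32, 1.03 to 1.68) and Sox17 with Gata4 (1.76, 1.07 to 2.72). Of these, only Foxa2 with Hnf4a was among the 4 reported. Sox17 with Gata4 had 1.28 in all thinned A cells (0.942 to 1.69). In B cells the pairs above the product numbered 1 at 5000 UMIs and 6 without thinning, against 0. The causes were not tested. Shares of cells with a UMI were higher at 5000 than at 3000 and at 2000 UMIs for all 9 factors in both classes. No paired analysis was possible because 1 library was analysed, and nothing here measures variation between cultures. Foxa1 and Sox9 in A cells rest on 78 and 77 UMIs.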
